A study of Mus musculus with 7 samples.

Results

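The genes of the fibroblast growth factor (FGF) and mitogen-activated protein (MAP) kinase pathway were taken by name: a mouse symbol of Fgf, Fgfr, Map4k, Map3k, Map2k, Mapk, Dusp, Spry or Spred followed by a number. There were 99 such genes among 21000 protein-coding genes, and 18 of the 99 had at least 1 peak of 5-methylcytosine (5mC) or 5-hydroxymethylcytosine (5hmC) in the gene or in the 5000 bp before its start. These 18 genes held 39 peaks. The other 81 had none by position, and 2 of those, Mapk15 and Dusp13, carried a peak just past their end that the authors had assigned to them. Over all protein-coding genes, 15.1% had a peak in any list. The symbol rule takes in 22 Fgf, 4 Fgfr, 5 Map4k, 18 Map3k, 7 Map2k, 13 Mapk, 24 Dusp, 3 Spry and 3 Spred genes, and some act outside FGF signaling, such as the Fgf genes whose products stay inside the cell and do not bind the receptors.

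5mC and 5hmC were profiled in ATDC5, a mouse chondroprogenitor cell line that differentiates toward chondrocytes in medium with insulin, transferrin and selenite. The 7 samples form 5 groups by mark and day: day 0 input DNA (1 sample), 5mC at day 0 (1 sample), 5mC at day 10 (1 sample), 5hmC at day 5 (2 samples) and 5hmC at day 10 (2 samples). Of these, the 4 enriched groups each have 1 deposited peak list, with 326 peaks (5mC day 0), 2401 peaks (5mC day 10), 2058 peaks (5hmC day 5) and 4164 peaks (5hmC day 10), and the input was not analysed here. Only 1 cell line was used, the 2 samples of a 5hmC day were merged by the authors, and the lists hold positions without heights or read counts, which leaves the depth unknown and every value without a measured spread between samples. The study's text names other days than the labels do, and every comparison of days here follows the labels. The 5mC lists hold regions of at least 3-fold and the 5hmC lists regions of at least 10-fold enrichment over a control that the headers do not name, and the study's methods describe the calls as a search for gain or loss between stages. A gene without a peak is therefore a gene with no region past that threshold, not a gene without the mark. The lists give no expression, so the cell type could not be checked against its marker genes.

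FGF ligands bind receptor tyrosine kinases at the cell surface, which signal through adaptor proteins and RAS to a relay of kinases. In that relay a MAP4K or RAS activates a MAP3K, the MAP3K a MAP2K and the MAP2K a MAP kinase such as ERK, JNK or p38. Members of the DUSP phosphatase, Sprouty and SPRED families restrain the relay. In cartilage, FGFR3 signaling is known to hold back chondrocyte proliferation, and the p38 branch is known to take part in chondrocyte differentiation.

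The sequences on which the 5hmC results turn are those of regions found at both days. At Map3k20, Mapk13, Dusp10 and Spred2, a 5hmC peak of day 10 lay wholly inside a wider 5hmC peak of day 5, and at Map3k20 there were 2 such day 10 peaks. The day 10 peaks are given on the + strand of GRCm38.p6 from RefSeq, with each CpG, the dinucleotide at which mammalian cytosines are mostly modified, in capitals.
Map3k20, chr2:72383366-72383493: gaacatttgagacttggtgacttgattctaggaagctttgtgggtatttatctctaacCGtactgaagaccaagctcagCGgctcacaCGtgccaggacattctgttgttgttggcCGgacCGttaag
Map3k20, chr2:72383505-72383777: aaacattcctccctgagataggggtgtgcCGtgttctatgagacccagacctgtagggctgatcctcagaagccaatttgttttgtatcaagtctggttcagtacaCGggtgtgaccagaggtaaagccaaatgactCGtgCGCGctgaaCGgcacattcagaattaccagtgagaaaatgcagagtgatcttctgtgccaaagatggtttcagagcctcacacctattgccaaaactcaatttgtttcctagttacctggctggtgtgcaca
Mapk13, chr17:28777265-28777410: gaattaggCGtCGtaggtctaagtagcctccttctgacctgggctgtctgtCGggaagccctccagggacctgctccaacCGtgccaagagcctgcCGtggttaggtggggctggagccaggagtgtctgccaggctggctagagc
Dusp10, chr1:184059756-184060014: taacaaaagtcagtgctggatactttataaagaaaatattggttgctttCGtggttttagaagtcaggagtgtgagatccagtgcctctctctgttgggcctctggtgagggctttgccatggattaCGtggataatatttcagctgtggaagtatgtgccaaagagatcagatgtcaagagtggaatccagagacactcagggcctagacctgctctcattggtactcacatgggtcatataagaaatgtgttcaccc
Spred2, chr11:19982281-19982564: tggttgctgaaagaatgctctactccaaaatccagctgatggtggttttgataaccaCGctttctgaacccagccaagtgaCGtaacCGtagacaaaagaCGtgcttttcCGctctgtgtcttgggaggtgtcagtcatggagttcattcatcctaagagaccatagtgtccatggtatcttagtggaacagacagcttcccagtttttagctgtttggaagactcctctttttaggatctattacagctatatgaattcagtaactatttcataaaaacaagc
The Dusp10 region holds 2 CpGs and the others 5 or 6 each. Most CpGs of the second Map3k20 region stand in a short run near its middle.

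**Figure D1:**
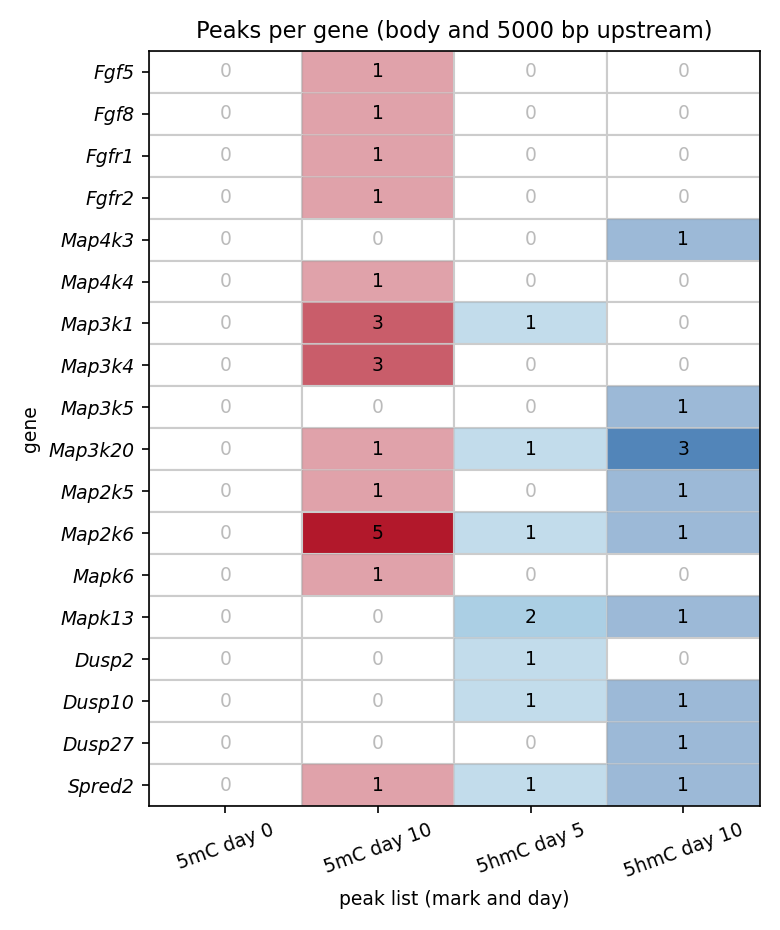
Number of peaks in the gene body or 5000 bp upstream for the 18 FGF and MAP kinase pathway genes with a peak (rows) in each of the 4 lists (columns), with darker cells for more peaks. The column of 5mC at day 0 is empty, Map2k6 has 5 peaks of 5mC at day 10, and Map2k6, Map3k20 and Spred2 have peaks in the other 3 lists.

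No gene of the pathway had a 5mC peak at day 0. With 0 of 99 genes the count allows a share of up to 3.03%, and over all protein-coding genes the share was 0.538% (0.0259%, 0.36% and 1.71% of genes under 10 kb, of 10 to 50 kb and over 50 kb). At day 10, 12 of the 99 genes had a 5mC peak, or 12.1% with a 95% Wilson interval from 7.07% to 20.0%, beside 6.51% of all protein-coding genes. For 5hmC, 7 genes had a peak at day 5 (7.07%, interval 3.47% to 13.9%) beside 4.95% of all, and 9 genes at day 10 (9.09%, interval 4.86% to 16.4%) beside 7.66% of all. Adding genes that the deposited lists name without an overlap gives 8 genes for 5hmC at day 5 and 11 at day 10. The background lay below the interval for 5mC at day 10 and inside it for both 5hmC lists. For 5mC this depended on the setting. With gene bodies alone or with 2000 bp upstream, 10 genes had a peak (10.1%, interval 5.58% to 17.6%) beside 6.06% and 6.23%, inside the interval. With peaks at least as wide as the list's median, 7 genes had one (interval 3.47% to 13.9%) beside 3.57%, also inside. The background stayed below the interval with 10000 bp upstream (7.04%, interval from 7.84%) and by peak midpoint (6.43%, from 7.07%). It did so too with 10000 bp on either side (8.19%, from 8.61%) and with gene bodies of GENCODE (6.55%, from 7.84%). These intervals cover counting error over genes, which are not replicates, and no test was made.

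Long genes offer more room for a peak, and the genes of the pathway with a peak were longer (median 76.9 kb) than those without (median 15.3 kb). The median length of the 99 genes was 19.4 kb, beside 16.7 kb for all protein-coding genes. Among genes over 50 kb, 9 of 34 had a 5mC peak at day 10 (26.5%, interval 14.6% to 43.1%) beside 16.2% of all such genes. In the same class, 4 had 5hmC at day 5 (11.8% beside 13.8%) and 6 had 5hmC at day 10 (17.6% beside 23.1%). All 3 intervals of the long genes held the background, and both 5hmC shares lay below it. In any list, 11 of these 34 had a peak, beside 38.1%. Of 35 genes of 10 to 50 kb, 4 had a peak in any list, beside 12.7%. These were 2 genes with 5mC at day 10 (5.38% of all such genes), 1 with 5hmC at day 5 (3.85%) and 2 with 5hmC at day 10 (4.92%). Of 30 genes under 10 kb, 3 had a peak, Fgf8, Mapk13 and Dusp2, beside 3.87%. These were 1 gene with 5mC at day 10 (1.93% of all such genes), 2 with 5hmC at day 5 (0.867%) and 1 with 5hmC at day 10 (1.36%). The 2 genes of day 5 made 6.67% (interval 1.85% to 21.3%), and the background lay below that interval. This rests on Mapk13 and Dusp2, and the only Dusp2 peak lay upstream. In the other lists, and for genes of 10 to 50 kb, the intervals held the background. Per length of gene and upstream sequence, 5mC peaks of day 10 numbered 3.13 per Mb at the pathway's genes and 1.57 per Mb at all protein-coding genes. Few genes carry that density: of the 20 peaks, 5 lay at Map2k6, 3 at Map3k1 and 3 at Map3k4. The density of 5hmC peaks was 1.25 beside 1.10 per Mb at day 5 and 1.72 beside 2.08 per Mb at day 10.

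**Figure D2:**
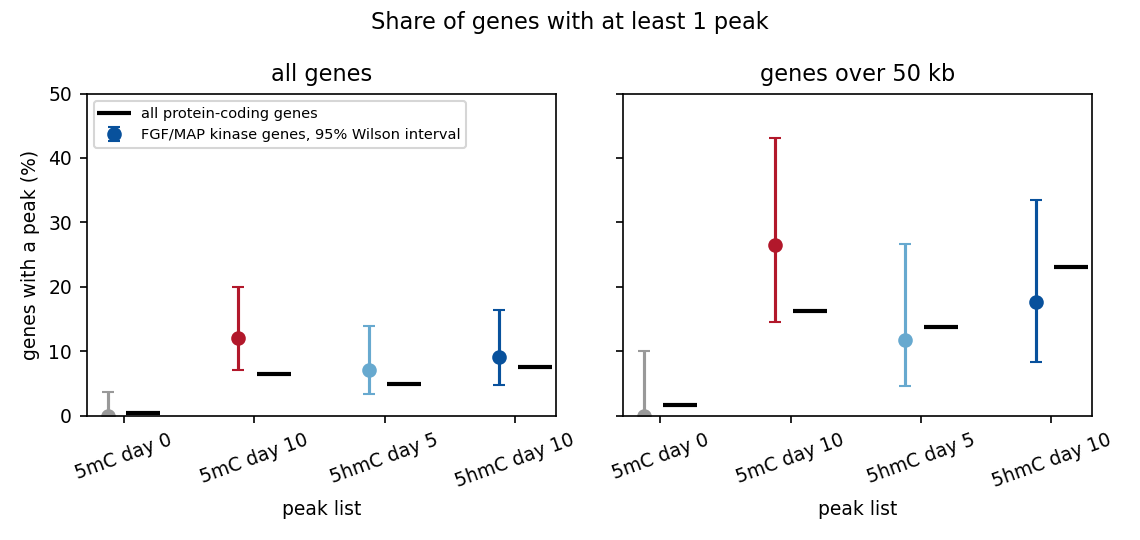
Percent of genes with at least 1 peak in each list, for genes of any length (left) and genes over 50 kb (right). Points are the FGF and MAP kinase pathway genes with 95% Wilson intervals and black bars are all protein-coding genes. The interval of 5mC at day 10 (12.1%) stands above the bar at 6.51%, which it did not with gene bodies alone, while among genes over 50 kb every interval reaches its bar.

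Each family count from here on stands beside 15.1% of all protein-coding genes with a peak in any list. That share was 3.87% of genes under 10 kb, 12.7% of those of 10 to 50 kb and 38.1% of those over 50 kb. Of the 22 ligand genes, 2 had a peak, both of 5mC at day 10, and none had 5hmC. Over all protein-coding genes, 4.95% had 5hmC at day 5 and 7.66% at day 10. With gene bodies of GENCODE in place of RefSeq, Fgf1 had 1 peak of 5hmC at day 10. Fgf5, a ligand known for ending the growth phase of hair, had its peak at chr5:98254996-98255651 in intron 1, with its midpoint 1.14 kb past the gene's start. Fgf8, a ligand of the early embryo and limb bud, had its peak at chr19:45745598-45746536, with its midpoint at −3.17 kb from the gene's start. It lay 1198 bp from the neighbouring gene Npm3, whose symbol the deposited list gives it. Its 43 CpGs made 4.58 per 100 bp, less than the 8.09 per 100 bp of its flanks. Fgf2, Fgf9 and Fgf18, ligands known in cartilage and bone, had no peak. The nearest peak of any list lay 291559 bp from Fgf2, 706560 bp from Fgf9 and 191455 bp from Fgf18.

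Of the 4 receptor genes, Fgfr1 and Fgfr2 each had 1 peak of 5mC at day 10 over coding sequence, and no receptor had 5hmC. The Fgfr1 peak, chr8:25571783-25572781, covered parts of exons 14 and 15 of 18, and the Fgfr2 peak, chr7:130240828-130241740, covered exon 4 of 18. They held 37 and 25 CpGs, or 3.70 and 2.74 per 100 bp, both above their flanks. Fgfr3, the receptor whose activating mutations cause achondroplasia, had no peak, and the nearest one was of 5hmC at day 5, 36626 bp away. Fgfr4 had none by the rule, with a 5hmC peak of day 10 lying 2734 bp past its 3′ end. The Fgfr2 count depends on the gene model: 1 long transcript in GENCODE stretches the gene to 2960.9 kb, beside 104.4 kb in RefSeq, and gives it 5, 3 and 6 peaks in place of 1, 0 and 0.

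Of the 5 MAP4K genes, which act at the head of the relay, Map4k4 had 5mC and Map4k3 had 5hmC, both at day 10. The Map4k4 peak, chr1:40022905-40023887, covered exon 30 of 32. The Map4k3 peak, chr17:80728614-80728771, had its midpoint at −0.667 kb from the start and held 8 CpGs in 158 bp, 5.06 per 100 bp beside 2.22 in its flanks, the highest value among the 11 day 10 5hmC peaks of the pathway. It was the 1 peak of these 11 with the ETS string CCGGAAG, on either strand, which 1.25% of the peaks of that list held. This sequence was chosen after its values were seen and is given with the ETS string in capitals.
Map4k3, chr17:80728614-80728771: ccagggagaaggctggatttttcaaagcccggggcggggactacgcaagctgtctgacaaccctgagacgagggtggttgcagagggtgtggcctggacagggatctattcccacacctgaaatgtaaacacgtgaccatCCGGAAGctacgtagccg

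Of the 18 MAP3K genes, 4 had peaks: Map3k1, Map3k4, Map3k5 and Map3k20. With GENCODE gene bodies Map3k13 also had 1 peak of 5hmC at day 10. Map3k1 (MEKK1, an activator of the JNK branch) had 3 peaks of 5mC at day 10, at chr13:111754885-111755636 over exon 14, at chr13:111755715-111756773 over exons 13 and 14 and at chr13:111782909-111783722 in intron 1. It also had 1 peak of 5hmC at day 5, chr13:111809527-111810118, with its midpoint at −0.829 kb from the start, and none of 5hmC at day 10. That upstream peak held 4.22 CpGs per 100 bp, beside 0.845 in its flanks. Map3k4 (MEKK4, of the p38 and JNK branches) had 3 peaks of 5mC at day 10 and none of 5hmC within the rule. They lay at chr17:12256131-12257329 over exons 8 and 9, chr17:12271161-12272310 over exon 3 and chr17:12282184-12282823 in intron 1. Of all protein-coding genes, 0.329% had at least 3 peaks of 5mC at day 10, or 69 genes. That background covers genes of every length, while Map3k1 (62.6 kb) and Map3k4 (91.2 kb) are over 50 kb long. The share of such long genes with at least 3 was not computed. Map3k5 (ASK1, a kinase of oxidative stress) had 1 peak of 5hmC at day 10 in intron 23.

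Map3k20 encodes ZAK, a kinase that responds to stalled ribosomes, and its 5 peaks fell in 3 lists. The 5mC peak of day 10, chr2:72281470-72282548, had its midpoint at −3.63 kb from the start. The 5hmC peak of day 5, chr2:72383180-72383782, lay in intron 8, 97.8 kb past the start, and held 13 CpGs. At day 10 there were 3 peaks of 5hmC, 1 in intron 1 (chr2:72290259-72290387) and 2 inside the day 5 region, chr2:72383366-72383493 and chr2:72383505-72383777. The 2 covered 21.2% and 45.3% of the day 5 peak and held 5 and 6 of its 13 CpGs. At least 3 peaks of 5hmC at day 10 were found at 0.7% of protein-coding genes. That background covers genes of every length, while Map3k20 is 157.0 kb long. The share of genes over 50 kb with at least 3 was not computed. The deposited lists name all 5 Map3k20 peaks by the gene's older symbol, B230120H23Rik.

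**Figure D3:**
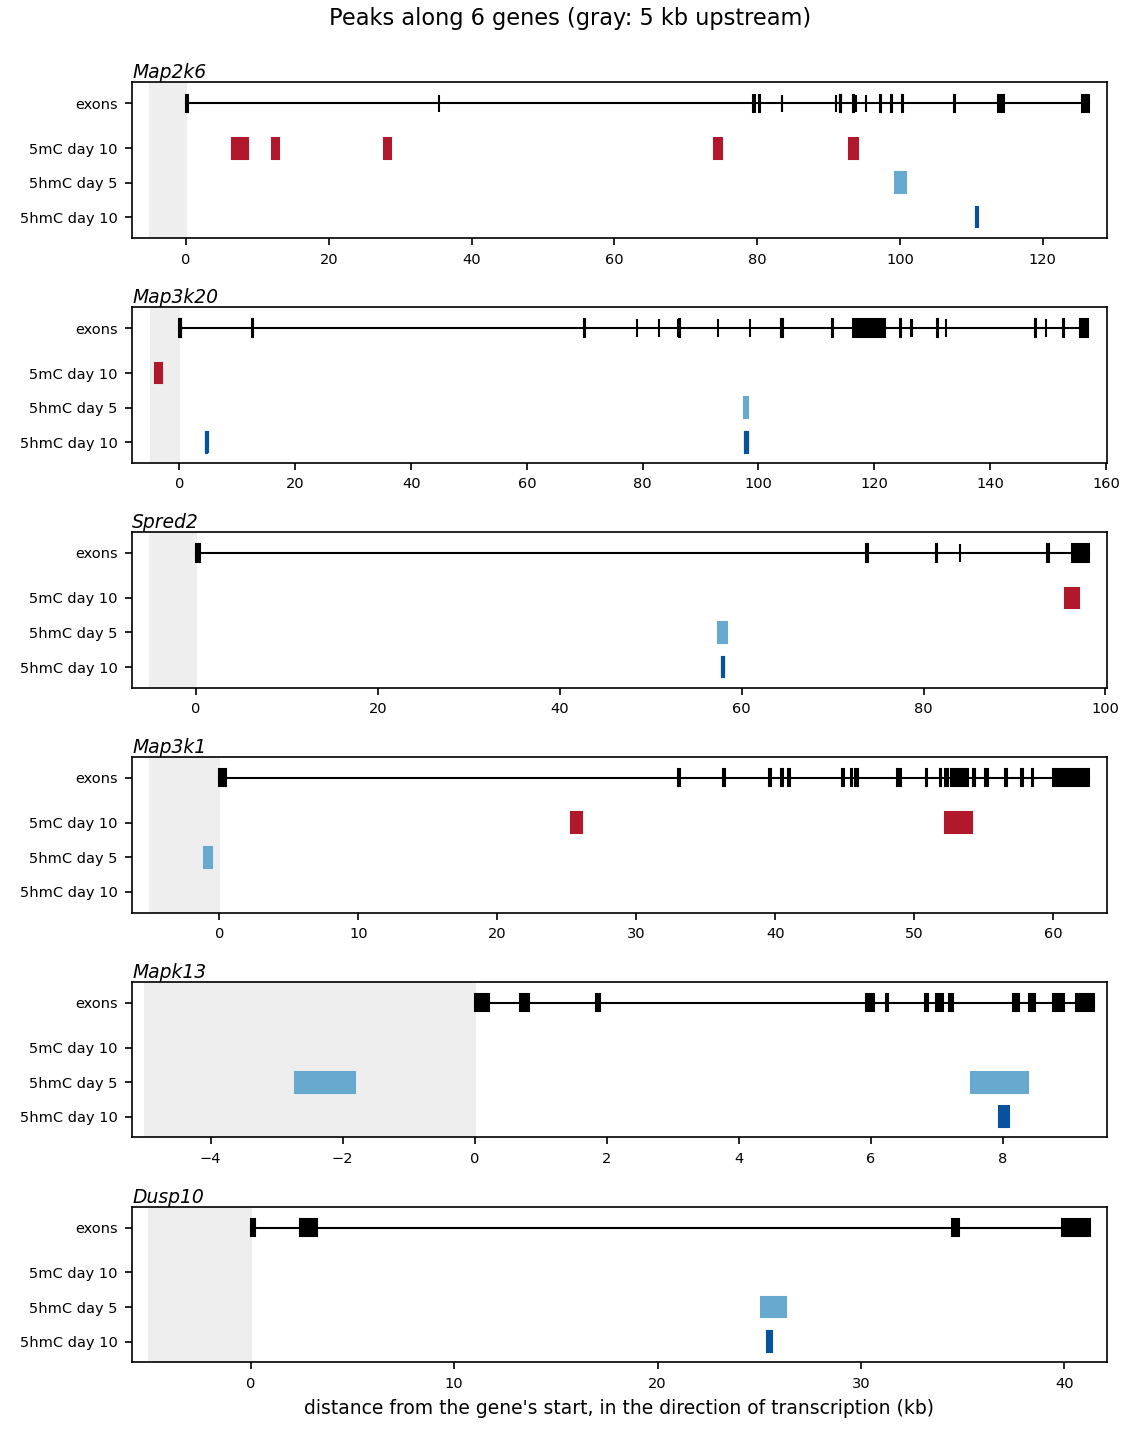
Exons of the curated RefSeq transcripts (black) and peaks (colored boxes, drawn slightly wider than scale so that narrow ones show) along 6 genes, in kb from the gene's start, with the 5 kb before the start in gray. The 5mC peaks of Map2k6 lie upstream of its 5hmC peaks, and the day 5 and day 10 5hmC boxes coincide at Map3k20, Spred2, Mapk13 and Dusp10 but not at Map2k6.

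Of the 7 MAP2K genes, 2 had peaks. Map2k6 encodes MKK6, an activator of p38 kinases, and held 7 of the 39 peaks. Its 5 peaks of 5mC at day 10 were chr11:110405473-110407799, chr11:110411149-110412166, chr11:110426762-110427810 and chr11:110473112-110474215, all in intron 1, and chr11:110491937-110493164 over exons 5 and 6 of 11. The peak chr11:110473112-110474215 lay 4300 bp before the start of another curated transcript, which begins within the gene. Of all protein-coding genes, 0.0571% had at least 5 peaks of 5mC at day 10, or 12 genes. That background covers genes of every length, while Map2k6 is 126.4 kb long. The share of genes over 50 kb with at least 5 was not computed. The widest of the 5 Map2k6 peaks spanned 2327 bp, and 13 of the 2401 peaks in the list were at least as wide. Its 5hmC peak of day 5, chr11:110498392-110499950, lay over exon 10, 5228 bp from the nearest 5mC peak. Its 5hmC peak of day 10 lay elsewhere, in intron 10 at chr11:110509900-110509965. That peak of 66 bp held no CpG, 68.2% of its bases were marked as repeat, and 6.56% of the peaks in its list held no CpG. It was chosen for printing after its values were seen, with no letters in capitals.
Map2k6, chr11:110509900-110509965: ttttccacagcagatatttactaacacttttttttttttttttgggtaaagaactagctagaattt

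Map2k5 (MEK5, the activator of ERK5) had 5mC at day 10 at chr9:63198159-63199226 in intron 19 and 5hmC at day 10 at chr9:63194089-63194228 over exon 21 of 22. The gap between them, 3931 bp, was the smallest between the marks at any of the pathway's genes. Map2k1 and Map2k2, the MEK1 and MEK2 genes of the ERK branch, had no peak, and the nearest peaks lay 101750 bp and 53057 bp away.

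Of the 13 MAP kinase genes, 2 had peaks by position. Mapk6 (ERK3, an atypical MAP kinase) had 1 peak of 5mC at day 10, chr9:75397411-75398676, over exon 2 of 6. With GENCODE gene bodies Mapk6 also had 1 peak of 5hmC at day 10. Mapk13, which encodes the delta form of p38, had only 5hmC. At day 5 it had 2 peaks, chr17:28766592-28767506 with the midpoint at −2.27 kb from the start and chr17:28776840-28777705 over exon 9, and 0.6% of protein-coding genes had at least 2. At day 10, chr17:28777265-28777410 lay inside the latter, in intron 8, and the upstream region had no peak. The alpha form of p38, Mapk14, lies beside Mapk13 and had no peak, with the nearest 5hmC 18187 bp away at day 5 and 28860 bp away at day 10. Mapk3, which encodes ERK1, had none either, and the nearest peak lay 134144 bp away. Mapk15 (ERK8) had 5hmC 55 bp past its end at day 5, chr15:75999208-76000554, and the day 10 peak assigned to it, chr15:75999814-75999967, lay inside that region.

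In the remaining families, 3 of 24 Dusp genes, 0 of 3 Spry genes and 1 of 3 Spred genes had peaks. The Dusp peaks were of 5hmC alone. Of all protein-coding genes, 1.93% of those under 10 kb and 5.38% of those of 10 to 50 kb had 5mC at day 10. The median Dusp gene was 11.8 kb long. With GENCODE gene bodies Dusp13 had 1 peak of 5mC at day 10. Dusp10 (MKP-5, a phosphatase of JNK and p38) had chr1:184059474-184060681 at day 5 and chr1:184059756-184060014 at day 10, both in intron 2 and 25.7 kb and 25.5 kb past the start by midpoint. Dusp2 (PAC-1, a nuclear phosphatase) had 1 peak at day 5, chr2:127333207-127333804, with its midpoint at −2.65 kb from the start. The Dusp2 peak also lay within 5000 bp of the start of Astl, so it was shared with that gene. Dusp27, whose product resembles a phosphatase but lacks the usual catalytic residue, had 1 peak at day 10, chr1:166124004-166124140, in intron 2. Dusp13 had a day 10 peak of 5hmC 288 bp past its end that held no CpG. Dusp6, an ERK phosphatase induced by FGF, had no peak within 111804 bp.

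Spred2, an inhibitor of RAS activation of RAF, had 1 peak in each of 3 lists. The 5mC peak of day 10, chr11:20020035-20021480, covered the start of the last exon and held 76 CpGs, 5.26 per 100 bp beside 1.76 in its flanks. The 5hmC peak of day 5, chr11:19981905-19982836, lay in intron 1, and that of day 10, chr11:19982281-19982564, covered 30.5% of it. Spry1, Spry2 and Spry4, the Sprouty genes, had no peak, and the nearest ones lay 51790 bp, 498612 bp and 210724 bp away. Map3k7 (TAK1, which also serves TGF-beta and BMP signaling) had none within 143387 bp.

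Genes with 5hmC at both days numbered 5, Map3k20, Map2k6, Mapk13, Dusp10 and Spred2, which was 71.4% of the 7 genes of day 5 and 55.6% of the 9 genes of day 10. Over all protein-coding genes, 2.32% had 5hmC at both days, 46.9% of those with a peak at day 5 and 30.3% of those with a peak at day 10. By position, 4 of 8 day 5 peaks overlapped a day 10 peak (50%, interval 21.5% to 78.5%), beside 29.6% in the whole list. Of 11 day 10 peaks, 5 overlapped a day 5 peak (45.5%, interval 21.3% to 72.0%), beside 17.1%. The list's share lay below the interval only for the day 10 peaks. Of those 5, 2 are the Map3k20 peaks inside 1 day 5 peak, and with peaks within 1000 bp merged, a setting chosen after seeing the data, 4 of 10 overlapped (40%, interval 16.8% to 68.7%) beside 15.5% of the merged list. Lying inside the wider day 5 peak was general, since 697 of the 710 overlapping day 10 peaks in the whole list did so. The day 5 peaks of the pathway had a median width of 890.5 bp and the day 10 peaks of 146 bp, close to the list medians of 819 and 147 bp. Under a rule that 50% of each peak be shared, none of these overlaps counted.

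**Figure D4:**
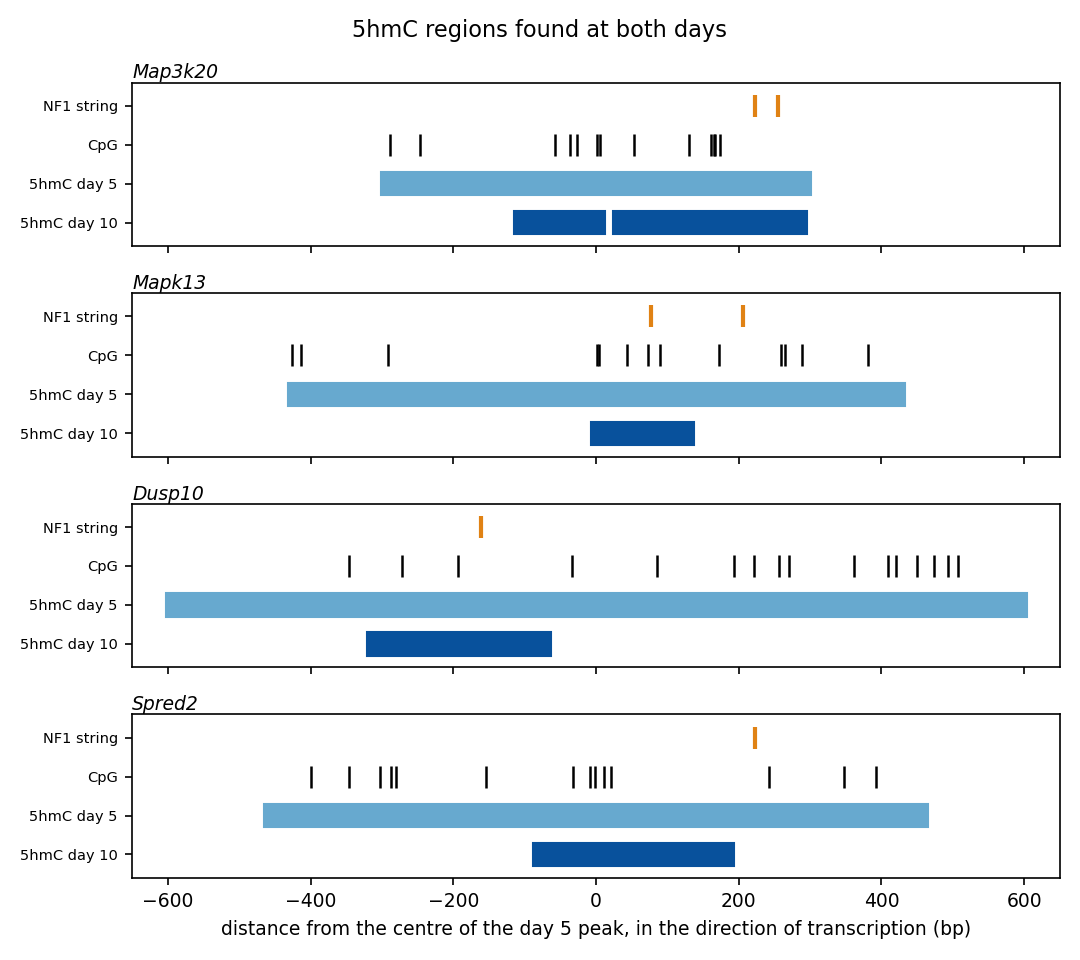
The 4 regions with 5hmC at both days, in bp from the centre of the day 5 peak, with the day 5 peak (light blue), the day 10 peaks (dark blue), every CpG in the day 5 peak (black ticks) and the NF1 string TTGGCA (orange ticks). Each day 10 box lies within its day 5 box, and at Dusp10 it covers 2 of 16 CpGs.

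Both marks were found at 5 genes, Map3k1, Map3k20, Map2k5, Map2k6 and Spred2, beside 2.04% of protein-coding genes. Of these, 4 had both at day 10 (all but Map3k1), beside 1.71% of protein-coding genes. Map3k20, Map2k6 and Spred2 had 5mC at day 10 and 5hmC at both days, beside 0.705%. These backgrounds cover genes of every length, while all 5 genes with both marks are over 50 kb long. Of all genes over 50 kb, 16.2% had 5mC at day 10, 13.8% had 5hmC at day 5 and 23.1% had 5hmC at day 10. The share of such genes with both marks was not computed. With GENCODE gene bodies Mapk6 and Fgfr2 also had both marks. There were 7 genes with 5mC at day 10 alone and 6 with 5hmC alone, beside 4.48% and 8.25% of protein-coding genes. In the genes with both, 0 of 10 5hmC peaks overlapped a 5mC peak, and over all protein-coding genes with both only 2.61% of 918 did so. The gaps ran from 3931 bp at Map2k5 to 100957 bp at Map3k20.

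Of the 20 peaks of 5mC at day 10, 10 touched coding sequence (50%), 8 lay in introns (40%) and 2 lay upstream, beside 48.1%, 40.8% and 8.25% of the peaks at all protein-coding genes. Of the 8 peaks of 5hmC at day 5, 3 lay upstream (37.5%, interval 13.7% to 69.4%), at Map3k1, Mapk13 and Dusp2, beside 12% of all. Another 3 lay in introns (37.5%, interval 13.7% to 69.4%), beside 67.1%. At day 10, 9 of 11 lay in introns (81.8%), beside 83%. The background lay outside the interval for the upstream share at day 5 alone, which rests on 3 peaks.

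CpG density was compared with that of flanks as wide as the peak, 2000 bp away on either side. For 5mC at day 10 the median peak of the pathway exceeded its flanks by 1.32 CpG per 100 bp, beside 1.19 in the list, and 18 of 20 peaks were above their flanks, beside 90.2% of the list. The 2 below were those of Fgf8 and Map3k4 intron 1. For 5hmC at day 5 the median difference was 0.39, beside 0.56, with 5 of 8 above, beside 79.2%. The upstream peaks of Mapk13 and Dusp2 were below, at 1.42 beside 2.95 and 1.67 beside 5.27 CpG per 100 bp, and so was the intron 1 peak of Spred2. For 5hmC at day 10 it was 1.43, beside 0.79, with 9 of 11 above, beside 70%. The others were Dusp10, which equalled its flanks, and Map2k6. Repeat-marked bases made up less of the peaks than of the flanks in all 3 lists, by medians of −7.48, −12.9 and −8.56 percentage points, beside −7.49, −11.2 and −11.1 over the whole lists.

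**Figure D5:**
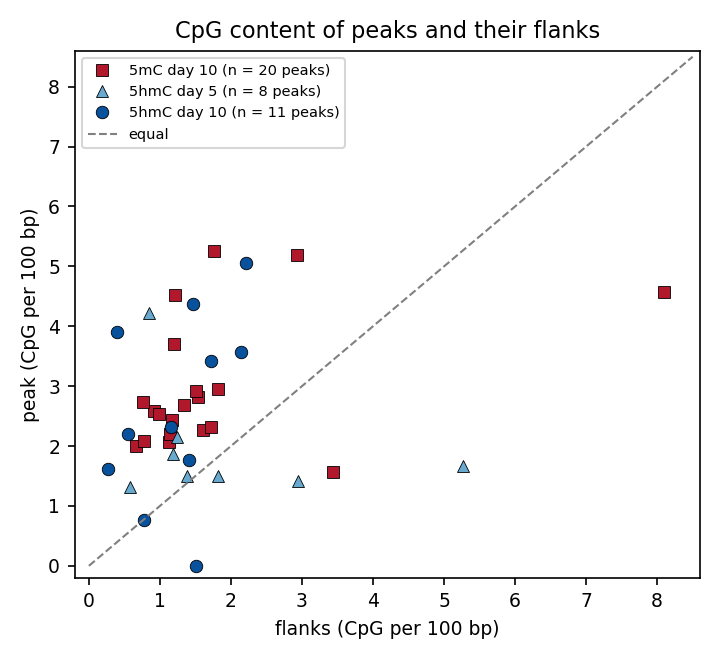
CpG per 100 bp in each of the 39 peaks at FGF and MAP kinase pathway genes (vertical) against the mean of its flanks (horizontal), by list, with a dashed line where they are equal. Most 5mC squares and day 10 5hmC circles stand above the line, and the points far below it are the peaks upstream of Fgf8 (square) and Dusp2 (triangle).

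Strings bound by transcription factor families were counted on either strand. The AP-1 string TGACTCA was in 3 of 8 peaks of 5hmC at day 5 (37.5%), beside 43.1% of the list, in 1 of 20 peaks of 5mC at day 10, beside 13.4%, and in 0 of 11 peaks of 5hmC at day 10, beside 7.97%. The 4 peaks were those of Map3k1 (5mC), Map2k6, Mapk13 upstream and Dusp2, the last with 2 copies. The string with 40 bases on either side is shown on the + strand, in capitals, where TGAGTCA is its reverse complement.
Map3k1, chr13:111783508-111783594, 5mC day 10: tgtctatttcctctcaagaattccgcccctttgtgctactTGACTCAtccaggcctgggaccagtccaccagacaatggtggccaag
Map2k6, chr11:110499822-110499908, 5hmC day 5: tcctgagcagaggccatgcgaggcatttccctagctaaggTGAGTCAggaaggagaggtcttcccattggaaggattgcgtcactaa
Mapk13, chr17:28766950-28767036, 5hmC day 5: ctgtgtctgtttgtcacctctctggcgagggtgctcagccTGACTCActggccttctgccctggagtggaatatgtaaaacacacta
Dusp2, chr2:127333230-127333316, 5hmC day 5: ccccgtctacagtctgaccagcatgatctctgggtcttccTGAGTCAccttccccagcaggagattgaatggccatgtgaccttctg
Dusp2, chr2:127333404-127333490, 5hmC day 5: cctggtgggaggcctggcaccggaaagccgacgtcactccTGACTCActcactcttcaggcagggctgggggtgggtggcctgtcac
The NF1 string TTGGCA was in 6 of 8 day 5 peaks (75%, interval 40.9% to 92.9%), beside 48.1%, and in 5 of 11 day 10 peaks of 5hmC (45.5%, interval 21.3% to 72.0%), beside 17.9%. At Map3k20, Mapk13 and Dusp10 the string was in the peaks of both days, and since those regions coincide the copies are the same. The ETS string CCGGAAG was in 3 of 20 peaks of 5mC, at Map2k6 (2 peaks) and Spred2, beside 9.87%. The RUNX string AACCACA was in 2, 1 and 0 peaks and the SOX strings ACAAAGG or ACAATGG in 7, 1 and 0 peaks of 5mC at day 10, 5hmC at day 5 and 5hmC at day 10. The same lists held RUNX in 19.8%, 25.6% and 7.56% and SOX in 30.2%, 27.2% and 5.38% of all their peaks. Wider peaks have more room for a string, so these counts do not compare the lists with each other. Median widths of the pathway's peaks were 1054 bp (5mC), 890.5 bp (5hmC, day 5) and 146 bp (5hmC, day 10). In equal windows of 200 bp around the midpoint, AP-1 was in 2 of 8 day 5 and 0 of 11 day 10 5hmC peaks. For RUNX the counts were 1 and 0, for SOX 0 and 1, for ETS 0 and 1, and for NF1 2 and 5. A string is no evidence that a factor was bound.

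A list of 53 other genes of the pathway was set beside these, and 8 of them had a peak (15.1%), the same share as over all protein-coding genes. By list there were 0 genes for 5mC at day 0 (0.538% of all genes), 5 for 5mC at day 10 (6.51%), 4 for 5hmC at day 5 (4.95%) and 5 for 5hmC at day 10 (7.66%). The 8 FGF binding partners and co-receptors and the 11 kinases activated by MAP kinases had none, where 15.1% of all genes had one. The 5 genes grouped as scaffolds, Mapk8ip1, Mapk8ip2, Mapk8ip3, Mapkbp1 and Lamtor3, had none either. That group leaves out Ksr1, which was grouped with the RAS and RAF genes. Nf1, a gene whose product switches RAS off, had 5mC at day 10 (1 peak) and 5hmC at day 5 (2 peaks) and day 10 (3 peaks), and 2 of the day 10 peaks, chr11:79422518-79422677 and chr11:79422689-79422837, lay inside the day 5 peak chr11:79422377-79422855. Il17rd (Sef, a feedback inhibitor of FGF signaling) had 1 peak of 5mC, 2 of 5hmC at day 5 and 1 at day 10, and the last, chr14:27058414-27058548, lay inside the day 5 peak chr14:27058355-27058986. Ksr1, a scaffold of RAF and MEK, had 1 peak of 5mC and 2 of 5hmC at day 10, and Elk3, an ETS factor that ERK phosphorylates, had 1 peak of 5hmC at each day at different places. The FGF-induced genes Etv4, Etv5 and Egr1 had no peak.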

How the data were processed

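The authors enriched DNA for 5mC with a methyl-CpG binding complex and for 5hmC with a tagged sugar, checked single-end reads with FastQC, trimmed them with cutadapt, aligned them to GRCm38 with BWA, called peaks with MACS 1.4.2 and annotated them with HOMER. The deposited files are peak positions, with a symbol for part of the rows. Empty rows in the 5hmC files (27818 at day 5 and 25449 at day 10) were dropped.

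Gene bodies were spans of curated RefSeq transcripts of GRCm38.p6. Genes were named by a symbol rule, and a gene had a peak when 1 bp or more of it lay in the body or 5000 bp upstream. Location was taken in the order upstream of the gene's outermost start, coding exon, other exon, intron. Shares carry 95% Wilson intervals, which cover counting error only, and a count of 0 allows up to 3 counts of the total. Sequence came from the same genome, in which lower case marks repeats, and repeat shares were counted from that marking. The sequences printed above do not show repeats, since all their letters other than the marked ones were put in lower case. The counting was tested on simulated peaks. Python 3.11.15, scipy 1.17.1 and samtools 1.23.1 were used. No replicate test was possible with 1 list for each mark and day. Every gene with a peak is named, and of the others those of a named list. The result of 1 gene of that list is not reported here. The genes and lists were chosen with earlier results of these data known. RefSeq in place of GENCODE release 21 was chosen after seeing the data.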

Additional observations from a re-analysis of the deposited data

How the results depend on the processing

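No result reversed. No paired analysis was possible because each mark and day has 1 peak list and the samples of a day were merged. For the same reason no replicate could be left out. Changes in the number of genes are measured from 12, 8 and 11 genes by position or symbol (12, 7 and 9 by position). Counting only peaks at least as wide as their list's median left 7 genes for 5mC at day 10, 4 for 5hmC at day 5 and 5 for 5hmC at day 10. Gene bodies alone left 5 genes for 5hmC at day 5, within 1.5 times the 7 by position. With gene bodies alone, with 2000 bp upstream and with the wider peaks, the background of 5mC at day 10 came inside the interval of the pathway's share. It stayed below with 10000 bp upstream, by peak midpoint, with 10000 bp on either side and with GENCODE gene bodies. With 10000 bp on either side of the gene, the background of 5hmC at day 10 (10%) fell below its interval (16 genes, interval 10.2% to 24.7%). The background in the order 5mC day 10, 5hmC day 5 and 5hmC day 10 became 5.65%, 4.34% and 6.83% over all annotated genes, 7.04%, 5.4% and 8.5% with 10000 bp upstream, and 6.06%, 4.47% and 6.84% with gene bodies alone, and with 2000 bp upstream it was 7.27% for 5hmC at day 10. GENCODE release 21 gene bodies, added after seeing the data, gave 20 peaks of 5hmC at day 10 in place of 11. By position these lay at 13 genes in place of 9 (13.1%, interval 7.84% to 21.2%), beside 7.87% of all protein-coding genes. With 50% of both peaks shared, 0% of the day 5 and 0% of the day 10 5hmC peaks overlapped. A promoter of 2000 bp held 0% of 5mC peaks at day 10, and by midpoint 0% of the 5hmC peaks of day 5 and 0% of day 10 lay in exons. In 200 bp around the midpoint, the CpG difference of 5mC was 2.5 per 100 bp, AP-1, NF1 and SOX strings were in 0%, 15% and 0% of 5mC peaks, NF1 and SOX strings in 25% and 0% of day 5 5hmC peaks, and the repeat difference of those was −8.75 percentage points. With flanks from 10000 bp, the repeat difference was −5.09 at day 5 and −16.5 at day 10. The other 119 values stayed within their intervals, quartiles or 1.5 times the count. Depth is unknown, so an absent peak does not bound the mark's level.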
